A study of Homo sapiens with 51 samples.

Results

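HMLE-TWIST1 cells that received chaetocin at 100 nM for 48 h were compared with HMLE-TWIST1 cells that received the solvent DMSO and were taken at the same day. The comparison holds 6 of the 51 libraries of the study, in 2 of its 17 groups, and its members were chosen by their treatment labels. Both groups are the same human mammary line and carry the same introduced TWIST1, so neither is a cell without it. The promoter that drives TWIST1, and whether the line is 1 clone, are not given in the sources used here. All cells grew in a mixture of mammary epithelial medium and medium with serum. Other groups of the study received 150, 200 or 500 nM for 48 h, 80 nM for 15 h followed by 48 h of fresh medium, or small interfering duplexes against SUV39H1 and SUV39H2. HMLE-TWIST1 cells with a scrambled duplex were the control of the duplexes. HMLE-TWIST1 cells in DMSO taken at day 4 were the control of 80 nM. The parental HMLE line, which does not carry the introduced TWIST1, also received DMSO and was taken at day 2 and day 4. The DMSO libraries of HMLE at day 2 and those of 150, 200 and 500 nM share the fit, the filter on low counts and the estimate of the spread with the 6 libraries compared. In the same way, the fit for 80 nM held the DMSO libraries of HMLE at day 4. The fit for the duplexes held the HMLE libraries of scrambled and targeting duplexes at day 2. Other groups are set beside 100 nM, the lowest of the 48 h doses, further below.

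HMLE cells come from immortalised epithelium of the human breast, and they lose cell-cell adhesion and take on a mesenchymal form when TWIST1 is introduced. TWIST1 is a basic helix-loop-helix transcription factor that drives epithelial to mesenchymal transition in development and in carcinoma cells. SUV39H1 and SUV39H2 place trimethylation on lysine 9 of histone H3, a mark of silent heterochromatin. Chaetocin is a fungal disulfide compound first described as an inhibitor of SUV39H1, and it is also known to act on other proteins with reactive thiols, among them thioredoxin reductase. The title of the study names reprogramming of the mesenchymal state by these enzymes as its subject. Genes were grouped here both by their place in the epithelial or mesenchymal programme and by their place in the stress pathways of the cell.

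Total RNA depleted of ribosomal RNA was sequenced in 3 libraries per group. The libraries held 7892018 to 11450656 reads in listed genes at 100 nM and 9948308 to 13764679 in DMSO. Levels are given as CPM, the reads of a gene relative to the scaled size of its library, always in the order of replicate 1, 2 and 3. Differences are log2 fold changes of 100 nM over DMSO with their standard error (±) from limma, n = 3 libraries per group. The adjusted p is limma's p after Benjamini-Hochberg adjustment over the 18801 genes tested, with a threshold of 0.05. Pairs of libraries correlated at 0.965 to 0.981 within 100 nM and at 0.989 to 0.991 within DMSO, over log2 CPM. The median SD of log2 CPM over 10450 genes with a mean of at least 3 was 0.192 at 100 nM and 0.107 in DMSO, so treated libraries were the more spread. Nothing in the sample records says that the replicates were separate cultures, so each p measures only a spread between libraries, estimated over the 18 libraries and 6 groups of the fit. The authors processed the dose libraries apart from the DMSO libraries, and by these 6 libraries alone that difference and the treatment cannot be told apart.

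TWIST1 had 367, 434 and 659 CPM at 100 nM, against 558, 547 and 699 CPM in DMSO, and the groups overlapped. The log2 fold change was -0.34 ± 0.23 with an adjusted p of 0.31. Its reads cannot tell the introduced copy from the cell's own gene. SUV39H1 had 11.6, 11.2 and 14.7 CPM at 100 nM, against 14.2, 9.66 and 14.1 CPM in DMSO, with an adjusted p of 0.99. SUV39H2 had 58.9, 52.3 and 49.7 CPM at 100 nM, against 40.6, 35.6 and 45.7 CPM in DMSO, and every treated library lay above every DMSO library (log2 fold change 0.40 ± 0.14, adjusted p = 0.049). That call was lost with adjusted p = 0.17 without 100 nM replicate 1, 0.088 without 100 nM replicate 2, 0.1 without DMSO replicate 1, 0.19 without DMSO replicate 2, 0.078 with the 15 HMLE-TWIST1 libraries fitted, 0.054 with no filter on low counts, 0.054 with precision weights, 0.05 with prior count 5 and 0.075 with a replicate block over the 6 libraries. The markers of the mesenchymal state were all present in both groups, with VIM at 2804, 2697 and 2555 CPM at 100 nM, against 2686, 2484 and 2870 CPM in DMSO. Epithelial markers were almost absent in both groups: CDH1, the E-cadherin gene, had 23 reads over the 3 libraries of 100 nM, against 3 reads over those of DMSO, and EPCAM had 10, against 1.

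Of the 18801 genes tested, 2231 rose at 100 nM (11.9%) and 2222 fell (11.8%), so 23.7% changed. With a log2 fold change of at least 1 in addition, 1155 rose (6.14%) and 485 fell (2.58%). The 3 treated libraries all lay above the 3 DMSO libraries for 3673 genes (19.5%) and all below them for 3955 (21%). The even split depends on the scale. Scaled to library totals, 3310 genes rose and 1259 fell, so that 72.4% of the calls were rises, against 50.1% of the calls in the scaling used here. The deposited values taken without joint rescaling gave 3539 rises and 1204 falls. Both of these scales moved the median log2 fold change of all genes to 0.16, against 0.0059 here, and the fold changes below are relative to that last value. Leaving out 1 library gave 1575 to 2560 rises, and the falls were 1414 without DMSO replicate 2, 1436 without DMSO replicate 3 and 1479 without 100 nM replicate 1. With only the 6 libraries in the fit, 1511 of 16037 genes rose and 1562 fell. Another 2057 genes are listed by the authors for 100 nM but not for DMSO and 659 for DMSO but not for 100 nM, and they enter no test.

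Among the treated libraries, replicate 3 lay nearest to DMSO. It was the nearest of the 3 in 62.6% of the genes that rose and in 62.2% of those that fell. Over the genes that rose, the median difference from the DMSO mean was 1.1, 1.11 and 0.76 log2 units in replicates 1, 2 and 3. Over the genes that fell it was -0.749, -0.651 and -0.504. Many genes below show the same order, with replicate 3 between the other treated libraries and DMSO.

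**Figure D1:**
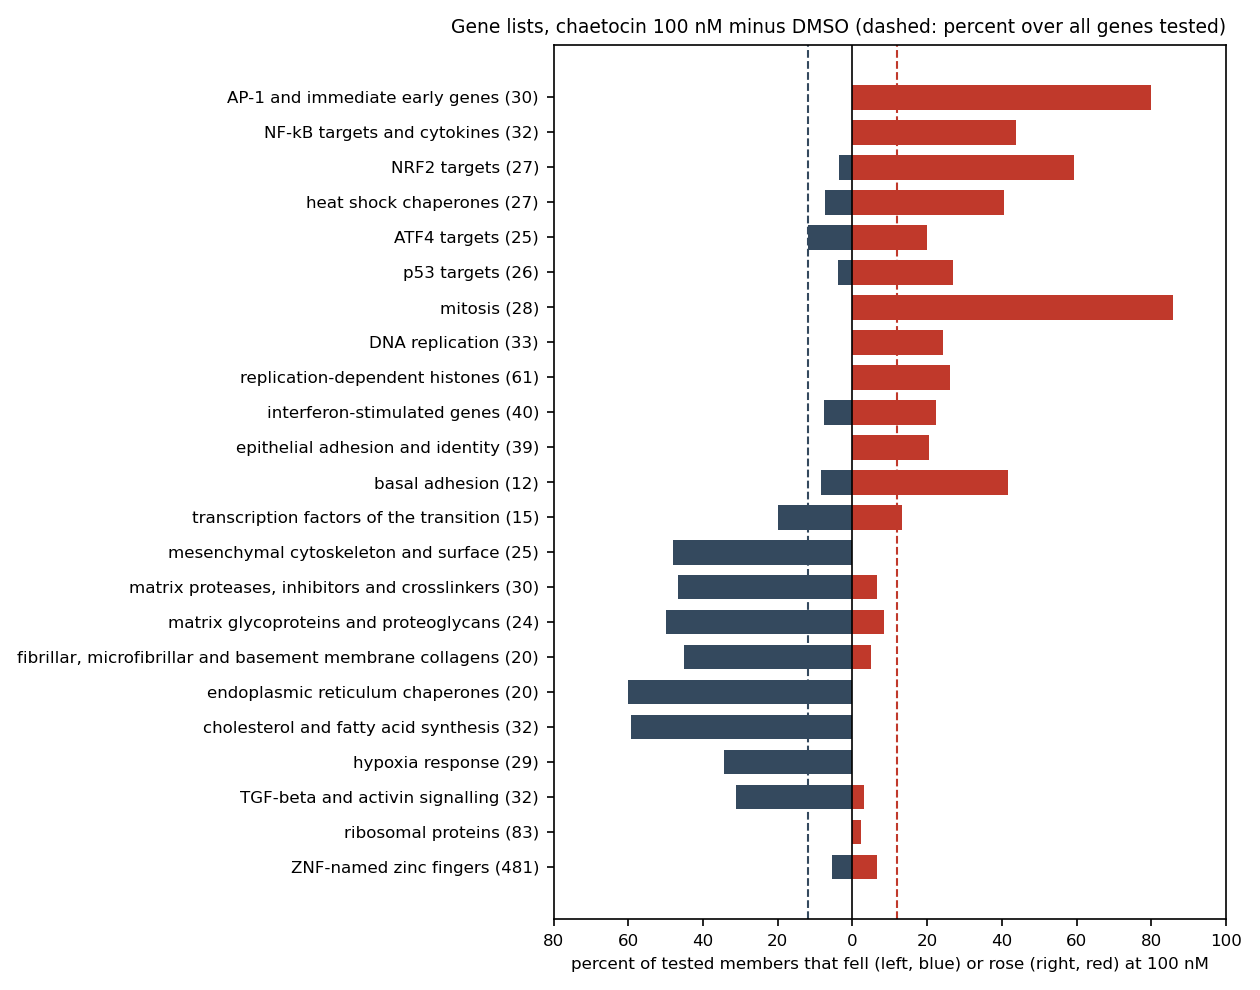
Percent of the tested members of 23 gene lists that fell (left, blue) or rose (right, red) at 100 nM against DMSO, in HMLE-TWIST1 cells, n = 3 libraries per group. The dashed lines mark the shares of all 18801 genes, 11.8% for falls and 11.9% for rises. AP-1, mitosis and NRF2 genes lie far to the right of the line, and cholesterol synthesis, endoplasmic reticulum chaperones and the matrix lists far to its left.

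The 5 rises with the smallest adjusted p were those of KCNQ3, LUCAT1, FER1L6, FTH1P8 and TEX29. LUCAT1, a long non-coding RNA, had 20.2, 19.1 and 9.71 CPM at 100 nM, against 0.55, 0.724 and 0.759 CPM in DMSO. KCNQ3, a potassium channel subunit, had 6.5, 6.39 and 6.38 CPM at 100 nM, against 0.33, 0.241 and 0.337 CPM in DMSO. Both rose far above the spread of either group, LUCAT1 by 4.19 ± 0.23 and KCNQ3 by 3.75 ± 0.21 on the log2 scale, with an adjusted p of 1.6e-08 each. The 3 treated libraries were almost equal for KCNQ3, whereas replicate 3 was the lowest for LUCAT1. FER1L6, of the ferlin family of membrane proteins, had 8.79, 22.3 and 9.26 CPM at 100 nM, against 0.22, 0.161 and 0.169 CPM in DMSO (log2 fold change 5.05 ± 0.35, adjusted p = 3.2e-07). TEX29, a gene named for its expression in testis, had 24.8, 27.4 and 28.8 CPM at 100 nM, against 2.53, 3.22 and 2.95 CPM in DMSO (log2 fold change 3.14 ± 0.23, adjusted p = 3.9e-07). The ferritin heavy chain pseudogene FTH1P8 had 56.9, 50.5 and 50 CPM at 100 nM, against 20.5, 19.7 and 22.3 CPM in DMSO (log2 fold change 1.32 ± 0.10, adjusted p = 3.7e-07), and its reads cannot be told from those of FTH1.

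Of rises among genes with a mean log2 CPM of at least 2, the largest was that of IL8, described with the cytokines. The histone deacetylase gene HDAC9 had 34.1, 39.1 and 10.9 CPM at 100 nM, against 0.66, 1.85 and 2.36 CPM in DMSO (log2 fold change 3.90 ± 0.57, adjusted p = 0.00035). IL1RL1, the receptor of interleukin 33, had 43.2, 42.9 and 12.5 CPM at 100 nM, against 2.53, 3.22 and 0.927 CPM in DMSO (log2 fold change 3.72 ± 0.52, adjusted p = 0.00022). For both genes replicates 1 and 2 were close to each other and replicate 3 was the lowest of the treated libraries, still above all DMSO libraries. CUBN, which encodes the endocytic receptor cubilin, rose by 3.12, and IGFBP6, a binding protein of insulin-like growth factors, by 3.03 on the log2 scale (adjusted p = 0.00019 and 3.4e-05). The long non-coding LINC00707 and the unnamed transcript KB-1732A1.1 rose by 3.04 and 3.28 (adjusted p = 0.00027 and 0.00014).

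The falls with the smallest adjusted p included those of PLCB4, ITGA5, PLOD1 and TIPARP. PLCB4, a phospholipase C that acts downstream of G-protein-coupled receptors, had 37.2, 50.8 and 49.2 CPM at 100 nM, against 141, 159 and 149 CPM in DMSO (log2 fold change -1.72 ± 0.11, adjusted p = 1.4e-07). ITGA5, the alpha subunit of the fibronectin receptor integrin, had 95.8, 87.9 and 89.1 CPM at 100 nM, against 248, 240.0 and 296 CPM in DMSO (log2 fold change -1.52 ± 0.11, adjusted p = 3.6e-07). In both genes the treated libraries stood close together and far below DMSO. PLOD1, a lysyl hydroxylase that modifies collagen, had 97.1, 89.3 and 84.7 CPM at 100 nM, against 210.5, 205 and 210.1 CPM in DMSO (log2 fold change -1.21 ± 0.09, adjusted p = 4.5e-07). TIPARP, an ADP-ribosyltransferase that is a known target of the aryl hydrocarbon receptor, fell by 1.15 on the log2 scale, with an adjusted p of 1.1e-06.

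The largest falls took in many matrix genes. DARC, the atypical chemokine receptor of red cells and vessels, had 0.964, 1.65 and 3.5 CPM at 100 nM, against 26.1, 34.1 and 21.2 CPM in DMSO (log2 fold change -3.75 ± 0.44, adjusted p = 3.3e-05). KIAA1199, a hyaluronan-binding protein that promotes hyaluronan breakdown, had 3.25, 12.2 and 11.1 CPM at 100 nM, against 84.8, 139 and 48.2 CPM in DMSO (log2 fold change -3.40 ± 0.53, adjusted p = 0.00049). MFAP4, a microfibril-associated protein, fell by 2.78, ITGA10, a collagen-binding integrin subunit, by 2.56, and ITGBL1, an integrin-beta-like secreted protein, by 2.43 on the log2 scale (adjusted p = 2e-05, 0.0018 and 0.0011). The transcript RP11-572C15.6 and the pseudogene FMO6P fell by 3.42 and 2.53 (adjusted p = 0.00017 and 0.0016). ITGA11, WISP2 and ECM2 were also among the 12 largest falls, but replicate 3 lay much nearer to DMSO than the other treated libraries. ITGA11, a collagen-receptor integrin subunit, had 8.43, 21.3 and 65.8 CPM at 100 nM, against 110.1, 182 and 151 CPM in DMSO, and its call (log2 fold change -2.65 ± 0.72, adjusted p = 0.016) was lost with adjusted p = 0.08 without 100 nM replicate 1, 0.055 without DMSO replicate 2 and 0.053 with only the 6 libraries fitted. The call of WISP2, a secreted CCN family protein (log2 fold change -2.64 ± 0.85, adjusted p = 0.036), was lost with adjusted p = 0.16 without 100 nM replicate 1, 0.11 without 100 nM replicate 2, 0.079 without DMSO replicate 1, 0.087 without DMSO replicate 2, 0.081 without DMSO replicate 3, 0.055 with the 15 HMLE-TWIST1 libraries fitted, 0.082 with only the 6 libraries fitted and 0.086 with a replicate block over the 6 libraries. That of ECM2, an extracellular matrix protein (log2 fold change -2.54 ± 0.67, adjusted p = 0.014), was lost with adjusted p = 0.054 without 100 nM replicate 1, 0.092 with only the 6 libraries fitted and 0.12 with a replicate block over the 6 libraries.

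**Figure D2:**
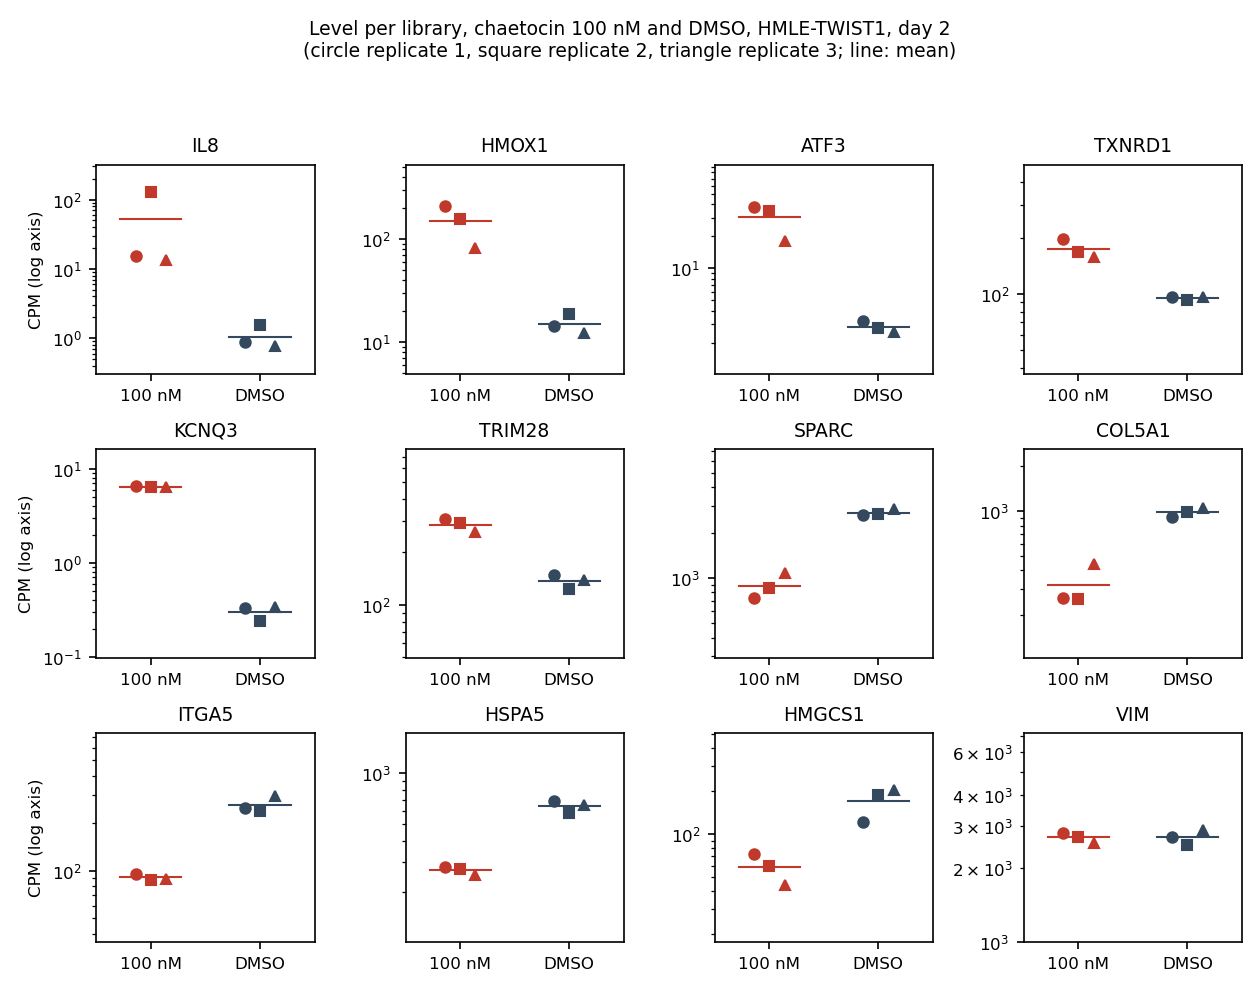
Level of 12 genes in each library, in CPM on a log axis, with 100 nM on the left and DMSO on the right of each panel. Circles, squares and triangles are replicates 1, 2 and 3, and the line is the mean of the group. IL8 is spread over almost an order of magnitude among the treated libraries, KCNQ3, TRIM28 and ITGA5 are tight in both groups, and VIM overlaps.

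Genes of the extracellular matrix fell in large numbers. Of 20 collagens tested, 9 fell and 1 rose, with a median log2 fold change of -0.96. Their summed level was 7148, 10270 and 16420 CPM at 100 nM, against 23960, 26390 and 25000 CPM in DMSO, so the treated libraries were far apart from each other and all lay below DMSO. COL5A1, a fibril-initiating collagen chain, had 261, 258 and 445 CPM at 100 nM, against 916, 987 and 1043 CPM in DMSO (log2 fold change -1.66 ± 0.27, adjusted p = 0.00065). COL16A1, a fibril-associated collagen, had 30.8, 26.3 and 33.5 CPM at 100 nM, against 63.4, 86.6 and 78.6 CPM in DMSO (log2 fold change -1.32 ± 0.15, adjusted p = 2e-05), and COL5A3, a further type V chain, had 29.8, 41.1 and 37.1 CPM at 100 nM, against 115, 93.2 and 106 CPM in DMSO (log2 fold change -1.54 ± 0.28, adjusted p = 0.001). These were the falls that stood under every leave-out. COL14A1, a fibril-associated collagen, was the collagen that rose, with 2.17, 2.32 and 3.77 CPM at 100 nM, against 0.55, 0.724 and 0 CPM in DMSO (adjusted p = 0.0017).

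The chains of type I and type III collagen had a wide spread among the treated libraries. COL1A2 had 266, 411 and 841 CPM at 100 nM, against 2093, 2584 and 2768 CPM in DMSO, with replicate 3 highest among the treated libraries. Its call (log2 fold change -2.45 ± 0.69, adjusted p = 0.019) was lost with adjusted p = 0.084 without 100 nM replicate 1, 0.055 without 100 nM replicate 2, 0.053 without DMSO replicate 2 and 0.055 without DMSO replicate 3. COL1A1 fell as well (log2 fold change -1.72 ± 0.48, adjusted p = 0.019), and that call was lost too, with adjusted p = 0.087 without 100 nM replicate 1 and 0.063 without DMSO replicate 3. COL3A1 had 2153, 2880 and 4766 CPM at 100 nM, against 5438, 4743 and 4376 CPM in DMSO, so replicate 3 stood within the DMSO range, and did not pass (adjusted p = 0.33). The collagens that fell numbered 3 without 100 nM replicate 1, 4 without DMSO replicate 2 or DMSO replicate 3 and 5 without 100 nM replicate 2, against 9 with all libraries.

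Glycoproteins and proteoglycans of the matrix behaved likewise, with 12 of 24 tested lower, 2 higher and a median of -1.37. SPARC, a collagen-binding glycoprotein, had 729.9, 851 and 1082 CPM at 100 nM, against 2635, 2648 and 2871 CPM in DMSO (log2 fold change -1.63 ± 0.19, adjusted p = 2.5e-05). FBLN5, which organises elastic fibres, had 35.3, 36.9 and 82 CPM at 100 nM, against 197, 308 and 281 CPM in DMSO (log2 fold change -2.43 ± 0.33, adjusted p = 0.00014). TNC, the gene of tenascin C, fell by 2.13, EFEMP1 by 2.02 and MGP, matrix Gla protein, by 3.21 on the log2 scale (adjusted p = 0.0025, 0.0045 and 0.00059). Fibronectin, FN1, had 4411, 10260 and 13770 CPM at 100 nM, against 22190, 24100 and 26880 CPM in DMSO, and all treated libraries lay below DMSO with replicate 1 well under the other treated libraries. Its call (log2 fold change -1.51 ± 0.49, adjusted p = 0.039) was lost with adjusted p = 0.18 without 100 nM replicate 1, 0.062 without 100 nM replicate 2, 0.073 without DMSO replicate 1, 0.083 without DMSO replicate 2 and 0.098 without DMSO replicate 3. THBS1, thrombospondin 1, had 1712, 3588 and 8057 CPM at 100 nM, against 16920, 21280 and 17860 CPM in DMSO (log2 fold change -2.34 ± 0.64, adjusted p = 0.017), a call that was lost with adjusted p = 0.086 without 100 nM replicate 1 and 0.053 without DMSO replicate 2. The members that rose were NOV, a CCN family protein (1.36, adjusted p = 0.0034), and MFAP2, a microfibril protein (2.64, adjusted p = 0.0048). The summed level of the list was 9939, 18170 and 28160 CPM at 100 nM, against 49180, 56790 and 55130 CPM in DMSO. The glycoproteins that fell numbered 6 without 100 nM replicate 1 or DMSO replicate 2.

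Enzymes that cut, crosslink or protect the matrix fell for 14 of 30 tested and rose for 2. No alternative moved the count of falls by more than 1.5 times. TIMP2, an inhibitor of metalloproteinases, had 97.9, 96.5 and 122 CPM at 100 nM, against 330.4, 331 and 293 CPM in DMSO (log2 fold change -1.60 ± 0.17, adjusted p = 1.3e-05). The aggrecanase genes ADAMTS1 and ADAMTS5 fell by 1.90 and 1.91 (adjusted p = 2.6e-05 and 0.00045). BMP1, which trims procollagen, fell by 1.44, the lysyl hydroxylase PLOD2 by 1.36, and the lysyl oxidases' relative LOXL2 by 1.11 on the log2 scale (adjusted p = 2.9e-05, 2.5e-05 and 0.00082). SERPINE2, a secreted protease inhibitor, rose by 1.16 (adjusted p = 0.00031). MMP3, stromelysin 1, had no read in the DMSO libraries and 1.32, 2.71 and 0.989 CPM in the treated ones, with an adjusted p of 0.00052. MMP3 could enter the test only through treated libraries or the DMSO libraries of HMLE. Its place among the rises is therefore a description only.

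Of 25 cytoskeleton and surface genes of mesenchymal cells that were tested, 12 fell and 0 rose, with a median of -0.65. The integrin subunits ITGAV and ITGB1 fell by 0.86 and 0.65, beside ITGA5 above (adjusted p = 7.3e-05 and 0.0013). PDGFRB, a platelet-derived growth factor receptor of stromal cells, had 100.5, 124 and 227 CPM at 100 nM, against 514, 537 and 432 CPM in DMSO (log2 fold change -1.80 ± 0.43, adjusted p = 0.0083). THY1, a surface glycoprotein of fibroblasts, fell by 1.12, and MYL9, a regulatory light chain of myosin, by 1.03 (adjusted p = 0.0034 and 0.0034). VIM, the vimentin intermediate filament, gave a log2 fold change of 0.00 with an adjusted p of 0.99. N-cadherin, CDH2, had 122, 128 and 132 CPM at 100 nM, against 123, 150.1 and 168 CPM in DMSO, with an adjusted p of 0.74. These genes that fell numbered 6 without 100 nM replicate 1. In bulk RNA, fewer cells of a kind and less RNA per cell cannot be told apart, here and in every list below.

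Of 15 transcription factors of the transition that were tested, 2 rose (13.3%) and 3 fell (20%), against 11.9% and 11.8% of all genes. ZEB1, a repressor of E-cadherin, had 536, 621 and 1017 CPM at 100 nM, against 1057, 1227 and 1033 CPM in DMSO, and replicate 3 stood just under the DMSO range. Its call (log2 fold change -0.66 ± 0.23, adjusted p = 0.045) was lost with adjusted p = 0.19 without 100 nM replicate 1, 0.14 without 100 nM replicate 2, 0.085 without DMSO replicate 1, 0.14 without DMSO replicate 2, 0.081 without DMSO replicate 3, 0.056 with the 15 HMLE-TWIST1 libraries fitted, 0.11 with the deposited log2 RPKM, 0.077 with library totals as the scale, 0.082 with only the 6 libraries fitted and 0.083 with a replicate block over the 6 libraries. SNAI2, a zinc finger repressor of the same gene, had 157, 161 and 204 CPM at 100 nM, against 219, 223 and 220.2 CPM in DMSO, with all treated libraries lower and an adjusted p of 0.062. KLF8, a zinc finger transcription factor, also fell (log2 fold change -1.26 ± 0.38, adjusted p = 0.023), a call that was lost with adjusted p = 0.1 without 100 nM replicate 1, 0.059 without DMSO replicate 2, 0.096 without DMSO replicate 3 and 0.057 with precision weights. SOX9, a factor of mammary stem and progenitor cells, rose and had 2.89, 4.26 and 3.77 CPM at 100 nM, against 0.77, 1.29 and 0.843 CPM in DMSO (log2 fold change 1.74 ± 0.25, adjusted p = 0.00019). FOXC2, a forkhead factor, rose by 0.98 (adjusted p = 0.0026). The count of rises was 5 with library totals as the scale or the deposited log2 RPKM, and that of falls was 0 without DMSO replicate 2, 1 with library totals as the scale or the deposited log2 RPKM and without 100 nM replicate 1 or 100 nM replicate 2 or DMSO replicate 1 or DMSO replicate 3, 5 with library quality weights and 6 with a replicate block.

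Epithelial adhesion and identity genes rose for 8 of 39 tested and fell for 0, and the members named here were near 0 in DMSO. Of all genes with a mean log2 CPM under 0, 20.8% rose and 1.32% fell, a share of rises close to that of the list. Members near 0 in DMSO of HMLE-TWIST1 could enter the test through the treated libraries or through the DMSO libraries of HMLE. The HMLE libraries of day 2 had a mean of 596 CPM for CDH1, 88.1 for EPCAM, 260 for ESRP1 and 351 for EHF. EHF, an epithelial ETS factor, had 2.89, 3.87 and 1.26 CPM at 100 nM, against 0.33, 0.241 and 0.169 CPM in DMSO (log2 fold change 2.60 ± 0.50, adjusted p = 0.002), a call that was lost with adjusted p = 0.093 with precision weights. ESRP1, the splicing regulator of epithelial cells, had 0.723, 1.55 and 0.899 CPM at 100 nM, against 0, 0.0805 and 0 CPM in DMSO (log2 fold change 2.48 ± 0.45, adjusted p = 0.00097). CLDN1, a tight junction claudin, had 3.01, 7.46 and 2.16 CPM at 100 nM, against 0.55, 0.402 and 0.422 CPM in DMSO, and its call (log2 fold change 2.58 ± 0.74, adjusted p = 0.021) was lost with adjusted p = 0.087 without 100 nM replicate 2, 0.054 without DMSO replicate 2 and 0.051 without DMSO replicate 3. E-cadherin had 1.32, 0.678 and 0.449 CPM at 100 nM, against 0.11, 0.0805 and 0.0843 CPM in DMSO (log2 fold change 1.74 ± 0.50, adjusted p = 0.019), a call that was lost with adjusted p = 0.087 without 100 nM replicate 1, 0.057 without DMSO replicate 2, 0.055 without DMSO replicate 3 and 0.07 with precision weights. EPCAM, an epithelial surface adhesion protein, gave 1.27 with an adjusted p of 0.0089, and the call was lost with adjusted p = 0.052 without 100 nM replicate 1. These levels remained at or under 7.46 CPM. The list as a whole summed to 173, 338 and 411 CPM at 100 nM, against 431, 485 and 455 CPM in DMSO, and the sum of every treated library was below those of DMSO. The epithelial genes that rose numbered 2 with only the 6 libraries fitted or a replicate block over the 6 libraries, 3 without 100 nM replicate 1, 4 with precision weights and without DMSO replicate 3 and 5 without 100 nM replicate 2 or DMSO replicate 2.

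Among keratins, 3 of 16 rose (18.8%) and 1 fell (6.25%), against 11.9% and 11.8% of all genes. KRT18, a keratin of simple epithelia, had 49.5, 45.1 and 32.2 CPM at 100 nM, against 22.4, 24.3 and 22.2 CPM in DMSO (log2 fold change 0.85 ± 0.16, adjusted p = 0.0015). KRT80 rose by 1.09 (adjusted p = 0.0024). KRT5 and KRT14, the pair of basal mammary cells, were near 0. KRT5 had 32 reads over the 3 libraries of 100 nM, against 79 reads over those of DMSO and was the keratin that fell (log2 fold change -1.08 ± 0.32, adjusted p = 0.021), a call that was lost with adjusted p = 0.11 without 100 nM replicate 1, 0.076 without DMSO replicate 2, 0.074 without DMSO replicate 3, 0.063 with the 15 HMLE-TWIST1 libraries fitted, 0.062 with only the 6 libraries fitted and 0.062 with a replicate block over the 6 libraries. KRT81, a hair keratin whose reads can be shared with its near copies, passed with 1.17 (adjusted p = 0.018) and was lost with adjusted p = 0.066 without 100 nM replicate 1, 0.097 without DMSO replicate 1, 0.097 with precision weights and 0.064 with a replicate block over the 6 libraries. Adhesion genes of basal epithelium rose for 5 of 12, and no alternative moved that count by more than 1.5 times. LAMA3, a laminin chain of epithelial basement membranes, had 45.4, 65.8 and 63.4 CPM at 100 nM, against 34.8, 24.8 and 26.3 CPM in DMSO (log2 fold change 1.02 ± 0.23, adjusted p = 0.005), and LAMB3, another such chain, had 17.9, 17.7 and 5.3 CPM at 100 nM, against 3.3, 1.77 and 2.78 CPM in DMSO (log2 fold change 2.15 ± 0.54, adjusted p = 0.01). COL17A1, the hemidesmosome collagen, had 2.17, 3.87 and 1.62 CPM at 100 nM, against 0.44, 0.241 and 0.506 CPM in DMSO (log2 fold change 2.17 ± 0.35, adjusted p = 0.00043). TP63, the transcription factor of basal cells, had 1.21, 2.32 and 0.899 CPM at 100 nM, against 0.44, 0.0805 and 0 CPM in DMSO (log2 fold change 2.29 ± 0.40, adjusted p = 0.00076). Replicate 3 was the lowest treated library for LAMB3, COL17A1 and TP63, and no treated library overlapped DMSO. CD151, a tetraspanin that binds laminin-receptor integrins, fell by 0.53 (adjusted p = 0.00038).

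**Figure D3:**
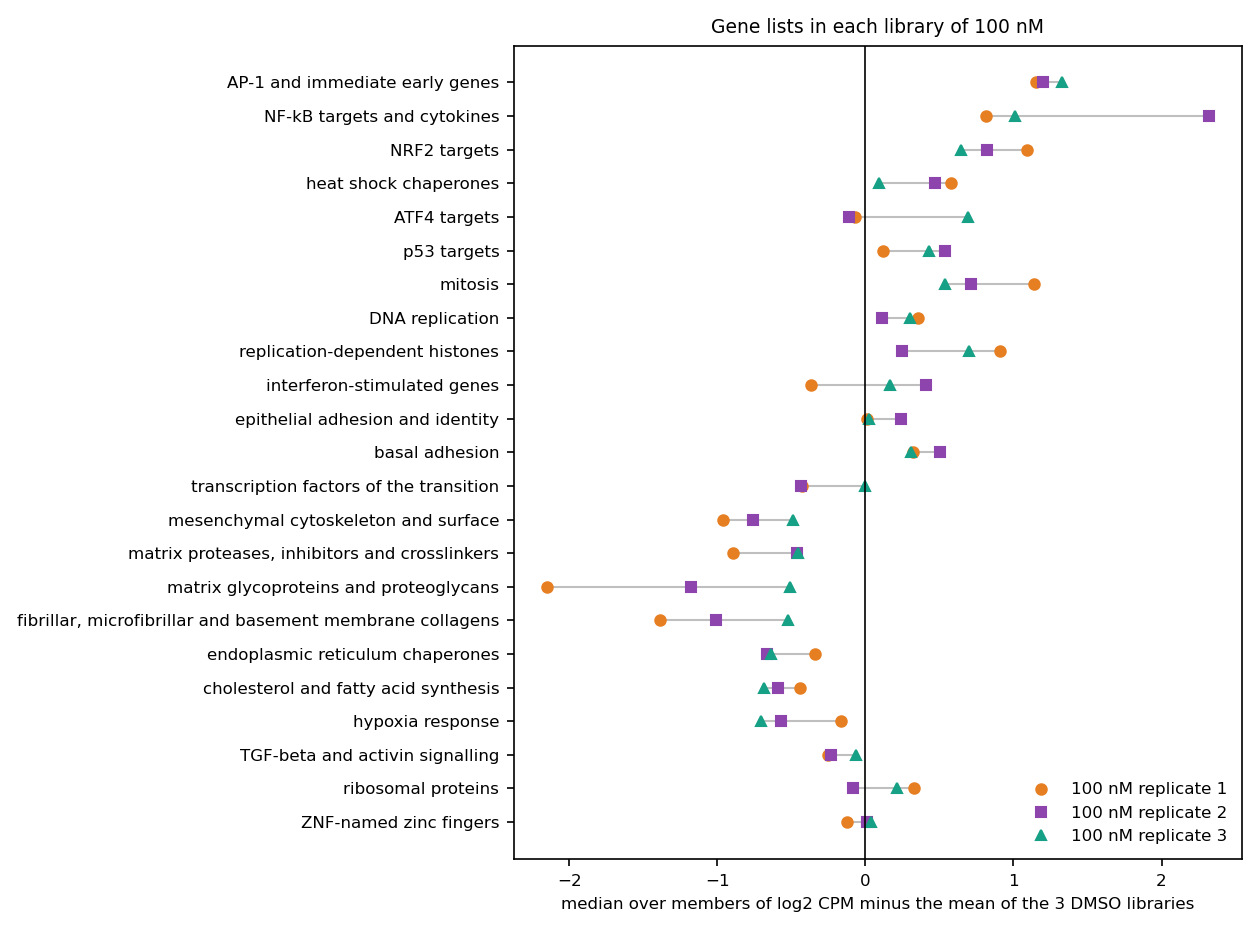
Median log2 difference of each 100 nM library from the DMSO mean, over the tested members of each gene list. Each point is 1 treated library. AP-1, NF-kB and NRF2 lists lie above 0 and matrix lists below 0 in all 3 libraries, with replicate 3 nearest to 0 for the collagens and glycoproteins.

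NF-kB is a family of dimeric factors held in the cytoplasm by inhibitors and released by inflammatory signals, and chemokines such as IL8 are among its best known targets. Of 32 genes tested, 14 rose and 0 fell, with a median log2 fold change of 1.22, against 11.9% of all genes that rose. The list summed to 1469, 3281 and 1930 CPM at 100 nM, against 863, 839.8 and 765 CPM in DMSO. With precision weights in place of equal weights, 6 rose. The upstream sequences of 5 of these genes are shown because the chemokines sit side by side on chromosome 4 and yet differed in their calls. Each line gives the 250 bases before the RefSeq start on GRCh38.p14, in the direction of the gene, with matches to GGNNTTTCC, a short form of the NF-kB site, in capitals on either strand.
IL8: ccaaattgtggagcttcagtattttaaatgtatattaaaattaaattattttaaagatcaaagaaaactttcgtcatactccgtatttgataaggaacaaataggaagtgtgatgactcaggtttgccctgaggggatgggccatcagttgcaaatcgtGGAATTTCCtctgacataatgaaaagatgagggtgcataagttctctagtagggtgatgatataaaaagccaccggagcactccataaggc
CXCL1: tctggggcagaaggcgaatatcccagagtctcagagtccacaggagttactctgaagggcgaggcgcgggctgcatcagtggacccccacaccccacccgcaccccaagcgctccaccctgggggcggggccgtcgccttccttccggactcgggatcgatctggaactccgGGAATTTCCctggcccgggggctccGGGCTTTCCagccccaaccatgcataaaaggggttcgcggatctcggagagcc
CXCL2: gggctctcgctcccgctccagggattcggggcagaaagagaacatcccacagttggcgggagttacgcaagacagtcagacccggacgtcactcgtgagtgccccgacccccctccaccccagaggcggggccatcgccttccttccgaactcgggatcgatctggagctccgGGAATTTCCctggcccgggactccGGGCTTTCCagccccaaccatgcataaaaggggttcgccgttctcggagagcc
CXCL3: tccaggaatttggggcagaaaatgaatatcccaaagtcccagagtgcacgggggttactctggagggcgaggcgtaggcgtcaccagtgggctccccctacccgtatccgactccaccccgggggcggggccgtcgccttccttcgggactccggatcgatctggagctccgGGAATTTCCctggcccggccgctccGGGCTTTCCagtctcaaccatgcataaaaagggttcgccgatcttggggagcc
IL6: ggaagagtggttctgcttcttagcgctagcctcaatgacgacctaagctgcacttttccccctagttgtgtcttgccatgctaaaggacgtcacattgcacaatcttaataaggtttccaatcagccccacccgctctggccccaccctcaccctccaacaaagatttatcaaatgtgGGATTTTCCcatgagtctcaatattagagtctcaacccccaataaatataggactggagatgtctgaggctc

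The positions are chr4:73740319-73740568 on the plus strand for IL8, chr4:73869143-73869392 on the plus strand for CXCL1, chr4:74099196-74099445 on the minus strand for CXCL2, chr4:74038690-74038939 on the minus strand for CXCL3 and chr7:22726950-22727199 on the plus strand for IL6. IL8 and IL6 hold 1 match each, beginning 91 and 72 bases before the start. The CXCL genes hold 2 each, the first beginning 78, 77 and 78 bases before the start in CXCL1, CXCL2 and CXCL3. Of all 35116 RefSeq promoters of this length, 5.48% hold the motif. Of 37 promoters of the 26 listed genes that could be matched, 19 hold it (51.4%). Counted by gene, 17 of the 26 matched genes hold it, and 7 of the 11 that rose. The AP-1 motif TGANTCA was counted apart from the first, whether or not the matches overlap, and was found in 6.57% of all promoters and in 4 of the 37 (10.8%). A match is a description of the letters and not a bound site, and both motifs were chosen after the values were seen. The list was made of NF-kB targets, so its excess of GGNNTTTCC over all promoters describes the list and not the treatment.

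IL8, the neutrophil chemokine also named CXCL8, had 15.5, 126 and 13.5 CPM at 100 nM, against 0.88, 1.53 and 0.759 CPM in DMSO (log2 fold change 4.64 ± 1.02, adjusted p = 0.005). That call was lost with adjusted p = 0.23 with precision weights. Replicate 2 was far above the other treated libraries, and all of them lay above DMSO. CXCL1, its neighbour, had 15.1, 112 and 39.2 CPM at 100 nM, against 4.4, 3.94 and 3.29 CPM in DMSO, again highest in replicate 2, and reads of the CXCL genes may be shared among near copies. Its call (log2 fold change 3.33 ± 0.97, adjusted p = 0.023) was lost with adjusted p = 0.1 without 100 nM replicate 2, 0.051 without DMSO replicate 1, 0.054 without DMSO replicate 2, 0.06 without DMSO replicate 3 and 0.16 with precision weights. CXCL2 had 16.7, 55.8 and 28.2 CPM at 100 nM, against 12.5, 7.16 and 8.94 CPM in DMSO, and CXCL3 had 4.22, 13.5 and 4.13 CPM at 100 nM, against 1.54, 1.45 and 1.52 CPM in DMSO. Neither passed (adjusted p = 0.072 and 0.054), and for both every treated library lay above every DMSO library. IL6, the fever cytokine, had 93 reads over the 3 libraries of 100 nM, against 3 reads over those of DMSO, with 58 of the treated reads in replicate 2 (log2 fold change 3.30 ± 0.67, adjusted p = 0.0027), a call that was lost with adjusted p = 0.13 with precision weights.

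Several further cytokines were near 0 in DMSO and rose. LIF, a cytokine of the IL6 family, had 4.22, 8.23 and 3.5 CPM at 100 nM, against 0.66, 0.724 and 1.1 CPM in DMSO (log2 fold change 2.37 ± 0.52, adjusted p = 0.0042). IL24 rose by 3.41 and IL11 by 1.36 (adjusted p = 0.0062 and 0.0088). CSF2, the growth factor of granulocytes and macrophages, had no read in DMSO and 1.21, 3.58 and 0.359 CPM in treated libraries (adjusted p = 0.017), a call that was lost with adjusted p = 0.081 without 100 nM replicate 2. With no DMSO read, CSF2 could enter the test only through treated libraries or those of HMLE, so its rise is a description only. Genes of the pathway itself were among those that rose. RELB, a subunit of the alternative pathway, had 25.1, 34.9 and 18.7 CPM at 100 nM, against 5.61, 8.29 and 7.17 CPM in DMSO (log2 fold change 1.84 ± 0.27, adjusted p = 0.00022). NFKB2, its partner, had 63.6, 70.3 and 42.3 CPM at 100 nM, against 28.3, 25.2 and 28.1 CPM in DMSO (log2 fold change 1.08 ± 0.23, adjusted p = 0.0033). TNFAIP3, which ends NF-kB signalling, rose by 1.77 (adjusted p = 0.01), and SOD2, the mitochondrial superoxide dismutase and a target of NF-kB, had 844, 2125 and 1263 CPM at 100 nM, against 383, 421 and 308 CPM in DMSO (log2 fold change 1.84 ± 0.36, adjusted p = 0.0022). RELA, the main activating subunit, had an adjusted p of 0.072 with a log2 fold change of 0.34, and the chemokine CCL2 did not pass (adjusted p = 0.44).

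AP-1 is a dimer of FOS, JUN and ATF proteins that is made soon after growth factor or stress signals. Of 30 immediate early genes and AP-1 subunits tested, 24 rose and 0 fell, with a median of 1.34, and no alternative moved the count of rises by more than 1.5 times. FOSL1, a FOS family member of mesenchymal and invasive cells, had 105, 77.5 and 39.1 CPM at 100 nM, against 12.5, 8.29 and 10.2 CPM in DMSO (log2 fold change 2.72 ± 0.28, adjusted p = 1.6e-05). ATF3, a stress-induced partner in AP-1, had 37.7, 34.6 and 18.1 CPM at 100 nM, against 3.19, 2.74 and 2.53 CPM in DMSO (log2 fold change 3.27 ± 0.36, adjusted p = 3.2e-05). JUN had 132, 148 and 147 CPM at 100 nM, against 60, 58.9 and 58.6 CPM in DMSO (log2 fold change 1.26 ± 0.18, adjusted p = 0.00014), with all 3 libraries of each group within a narrow range. MAFF, a small MAF protein, rose by 2.37 (adjusted p = 1.6e-05), and PHLDA1, a stress-response gene, had 96.6, 128 and 73.6 CPM at 100 nM, against 19.5, 14.1 and 14.9 CPM in DMSO (log2 fold change 2.59 ± 0.25, adjusted p = 1.1e-05). MYC rose by 1.04 and EGR1 by 1.57 (adjusted p = 0.0017 and 0.0072). DUSP6 and SPRY4, which damp signalling from ERK kinases, rose by 2.59 and 1.92 (adjusted p = 0.00034 and 5.6e-05), while DUSP1, DUSP4, JUND, FOSL2, KLF6 and ZFP36 did not pass.

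Of EGF family and other growth factor ligands and receptors, 6 of 25 rose (24%) and 1 fell (4%), against 11.9% and 11.8% of all genes. EREG, the ligand epiregulin, had 18.4, 23.5 and 9.26 CPM at 100 nM, against 2.2, 1.29 and 1.52 CPM in DMSO (log2 fold change 3.14 ± 0.32, adjusted p = 1.4e-05), low in replicate 3 and still well above DMSO. EGF itself rose by 1.95, HGF, the ligand of the MET receptor, by 1.81, and FGF1 by 1.36 (adjusted p = 0.002, 0.0012 and 0.0098). ERBB2, a receptor of the family, fell by 0.63 (adjusted p = 0.0049). The growth factor genes that rose numbered 3 with a replicate block over the 6 libraries and 10 with library quality weights.

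Targets of NRF2, the factor that answers oxidants and electrophiles, rose for 16 of 27 tested and fell for 1, with a median of 0.86. Their summed level was 4130, 3578 and 3538 CPM at 100 nM, against 1927, 1911 and 2118 CPM in DMSO, so all treated libraries stood above all DMSO libraries. HMOX1, heme oxygenase 1, had 210.5, 159 and 81.6 CPM at 100 nM, against 14.4, 18.9 and 12.3 CPM in DMSO (log2 fold change 3.21 ± 0.34, adjusted p = 2.5e-05), with replicate 3 lowest of the treated libraries. NQO1, a quinone reductase, had 495, 404 and 348 CPM at 100 nM, against 159.5, 142 and 186 CPM in DMSO (log2 fold change 1.34 ± 0.15, adjusted p = 2e-05). FTH1, the ferritin heavy chain that stores iron, had 1022, 1051 and 1042 CPM at 100 nM, against 372, 454 and 469 CPM in DMSO (log2 fold change 1.27 ± 0.09, adjusted p = 4.5e-07). TXNRD1, the cytosolic thioredoxin reductase, had 197, 168 and 156 CPM at 100 nM, against 96.1, 92.5 and 96.3 CPM in DMSO (log2 fold change 0.86 ± 0.10, adjusted p = 2.5e-05). The 3 treated libraries of FTH1 and TXNRD1 were close to each other and no library overlapped DMSO.

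Other members covered glutathione synthesis, the pentose phosphate pathway and carbonyl reduction. GCLM and GCLC, the subunits of the enzyme that begins glutathione synthesis, rose by 0.93 and 0.62 (adjusted p = 0.00011 and 0.0013). TKT, the transketolase of the pentose phosphate pathway, rose by 0.98 (adjusted p = 0.00031). AKR1B10, an aldo-keto reductase, rose by 3.09 (adjusted p = 1.1e-05) and PIR, the iron-binding protein pirin, by 1.62 (adjusted p = 1.6e-05). SQSTM1, an autophagy receptor that competes for the inhibitor of NRF2, had 302, 286 and 159 CPM at 100 nM, against 95.7, 108 and 97.4 CPM in DMSO (log2 fold change 1.25 ± 0.21, adjusted p = 0.00054). SLC7A11, the cystine transporter, had 31.1, 44.6 and 128 CPM at 100 nM, against 29.9, 33.3 and 37.9 CPM in DMSO, where replicate 3 alone was high, and did not pass (adjusted p = 0.15). GSR, glutathione reductase, was the member that fell (log2 fold change -0.33 ± 0.12, adjusted p = 0.048), a call that was lost with adjusted p = 0.12 without 100 nM replicate 1, 0.18 without 100 nM replicate 2, 0.1 without DMSO replicate 1, 0.12 without DMSO replicate 2 and 0.14 without DMSO replicate 3. The NRF2 targets that fell numbered 0 with median of ratios scaling, library totals as the scale or the deposited log2 RPKM, so the call was lost there too.

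Thioredoxins, peroxiredoxins and glutathione peroxidases rose for 3 of 23 (13%) and fell for 4 (17.4%), against 11.9% and 11.8% of all genes. The rises numbered 5 without 100 nM replicate 3 and 6 with library totals as the scale or the deposited log2 RPKM or a replicate block, and the falls 2 without DMSO replicate 2. TXN, thioredoxin itself, had 94, 84.2 and 69.2 CPM at 100 nM, against 37.6, 45.9 and 48 CPM in DMSO (log2 fold change 0.91 ± 0.12, adjusted p = 9.2e-05). TXNIP, which binds and inhibits thioredoxin, had 143, 106 and 159.7 CPM at 100 nM, against 342, 393 and 276 CPM in DMSO, and its call (log2 fold change -1.31 ± 0.37, adjusted p = 0.02) was lost with adjusted p = 0.076 without 100 nM replicate 2, 0.055 without DMSO replicate 1 and 0.08 without DMSO replicate 2. CAT, catalase, and GPX8, a peroxidase of the endoplasmic reticulum, fell by 0.74 and 0.80 (adjusted p = 0.0017 and 0.003).

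Heat shock chaperones rose for 11 of 27 and fell for 2. HSPA1A, the inducible HSP70, had 82.2, 68.1 and 33.2 CPM at 100 nM, against 24.6, 15.3 and 25 CPM in DMSO (log2 fold change 1.43 ± 0.27, adjusted p = 0.0017, but adjusted p = 0.06 with a replicate block over the 6 libraries), and its reads can be shared with the near copy HSPA1B. HSP90AA1 had 3126, 3162 and 2117 CPM at 100 nM, against 1815, 1545 and 2015 CPM in DMSO (log2 fold change 0.63 ± 0.14, adjusted p = 0.0042), and HSP90AB1 rose by 0.47 (adjusted p = 0.0045). In the blocked fit of the 6 libraries both were lost, with adjusted p = 0.071 and 0.067. DNAJB4, a co-chaperone, fell by 0.71 (adjusted p = 0.0036). The summed level was 9746, 8549 and 6436 CPM at 100 nM, against 6286, 5484 and 6580 CPM in DMSO, and replicate 3 lay within the DMSO range. The heat shock genes that rose numbered 3 with a replicate block over the 6 libraries, 5 with only the 6 libraries fitted and without 100 nM replicate 2 or DMSO replicate 2 or DMSO replicate 3, 6 with the 15 HMLE-TWIST1 libraries fitted and without 100 nM replicate 1 and 7 without DMSO replicate 1. Metallothioneins, the metal-binding proteins induced by zinc and cadmium, gave 0 rises and 0 falls in 5 tested.

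Chaperones of the endoplasmic reticulum fold secreted proteins such as collagens, and their genes are raised together by the unfolded protein response through ATF6 and XBP1. Of 20 tested, 12 fell and 0 rose, with a median of -0.53, against 11.8% of all genes that fell. Their sum was 5957, 5259 and 5048 CPM at 100 nM, against 9249, 8816 and 9021 CPM in DMSO, without overlap between the groups. No alternative moved the count of falls by more than 1.5 times. HSPA5, the central chaperone BiP, had 281, 273 and 252 CPM at 100 nM, against 690.1, 582 and 654 CPM in DMSO (log2 fold change -1.25 ± 0.10, adjusted p = 1.2e-06). CALR, calreticulin, had 1073, 893 and 940.5 CPM at 100 nM, against 2363, 2057 and 2099 CPM in DMSO (log2 fold change -1.17 ± 0.13, adjusted p = 1.8e-05). HSP90B1, the HSP90 of this compartment, had 768, 939.8 and 894 CPM at 100 nM, against 1458, 1522 and 1541 CPM in DMSO (log2 fold change -0.80 ± 0.09, adjusted p = 2.8e-05). The protein disulfide isomerases PDIA3 and PDIA4 fell by 0.94 and 0.90, and SEL1L, of the degradation complex, by 0.68 (adjusted p = 1.8e-05, 3.4e-05 and 2.5e-05).

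The upstream sequences of HSPA5, CALR and HSP90B1 are shown since these 3 well expressed genes fell and their promoters share the endoplasmic reticulum stress element, searched on both strands. Matches are in capitals, in the 250 bases before the RefSeq start on GRCh38.p14.
HSPA5: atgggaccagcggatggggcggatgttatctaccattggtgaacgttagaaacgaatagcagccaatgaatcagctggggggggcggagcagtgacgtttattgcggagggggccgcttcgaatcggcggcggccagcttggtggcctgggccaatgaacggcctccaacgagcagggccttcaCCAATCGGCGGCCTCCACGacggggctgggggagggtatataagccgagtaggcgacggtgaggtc
CALR: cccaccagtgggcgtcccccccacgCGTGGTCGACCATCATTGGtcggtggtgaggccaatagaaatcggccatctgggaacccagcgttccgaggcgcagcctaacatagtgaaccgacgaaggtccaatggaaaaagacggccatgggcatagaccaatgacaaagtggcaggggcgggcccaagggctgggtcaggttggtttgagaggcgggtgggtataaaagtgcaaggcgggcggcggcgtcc
HSP90B1: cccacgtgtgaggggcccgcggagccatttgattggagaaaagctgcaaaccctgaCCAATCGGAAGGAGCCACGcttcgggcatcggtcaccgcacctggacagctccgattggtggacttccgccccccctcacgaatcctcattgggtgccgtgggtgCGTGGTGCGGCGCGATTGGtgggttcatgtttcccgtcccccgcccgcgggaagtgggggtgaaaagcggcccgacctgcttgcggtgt

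They lie at chr9:125241344-125241593 on the minus strand, chr19:12938359-12938608 on the plus strand and chr12:103930160-103930409 on the plus strand. HSPA5 holds 1 match that begins 66 bases before the start, CALR 1 on the opposite strand, 225 bases before it, and HSP90B1 2, 1 on each strand, the first 194 bases before it. The element is in 26 of all 35116 promoters (0.074%) and in 8 of 26 promoters of the listed genes (30.8%). Counted by gene, 7 of the 19 matched genes hold it, and 4 of the 11 that fell. This motif was also chosen after the values were seen. The listed genes answer the unfolded protein response, so their excess of the element over all promoters describes the list and not the treatment.

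Targets of ATF4, the factor of amino acid and integrated stress, were higher for 5 of 25 (20%) and lower for 3 (12%). Of all genes, 11.9% rose and 11.8% fell. CEBPB, a leucine zipper factor that also acts in inflammation, had 95.6, 81.4 and 77.6 CPM at 100 nM, against 52.5, 45.2 and 51.1 CPM in DMSO (log2 fold change 0.77 ± 0.09, adjusted p = 3.2e-05). TRIB3, an inhibitory pseudokinase, rose by 0.87 (adjusted p = 0.0068). Asparagine synthetase, ASNS, a standard reporter of ATF4, did not pass (adjusted p = 0.33). PPP1R15A, which restores translation after stress, had 105, 69.2 and 60 CPM at 100 nM, against 32.1, 34.4 and 31.2 CPM in DMSO and did not pass (adjusted p = 0.069). The count of rises was 2 with the 15 HMLE-TWIST1 libraries fitted and without 100 nM replicate 3 or DMSO replicate 1 or DMSO replicate 2 and 3 without 100 nM replicate 1, and that of falls was 0 without 100 nM replicate 2, 1 without 100 nM replicate 1 and 7 without 100 nM replicate 3.

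Cholesterol and fatty acid synthesis genes fell for 19 of 32 tested and rose for 0, with a median of -0.51. These genes are activated together by the sterol-sensing factors SREBF1 and SREBF2. SREBF1 had 45.9, 38.9 and 49.1 CPM at 100 nM, against 106, 105 and 130.0 CPM in DMSO (log2 fold change -1.34 ± 0.19, adjusted p = 0.00013). HMGCS1, which makes the precursor of mevalonate, had 73, 59.6 and 43.8 CPM at 100 nM, against 122, 186 and 202 CPM in DMSO (log2 fold change -1.52 ± 0.31, adjusted p = 0.0029). SQLE, squalene epoxidase, and ACLY, ATP citrate lyase, fell by 0.74 each (adjusted p = 0.00054 and 0.00038). In the sum of the list, 3244, 2527 and 2192 CPM at 100 nM, against 3489, 3656 and 4952 CPM in DMSO, DMSO replicate 3 was the highest library and 100 nM replicate 1 came near to DMSO replicate 1. The synthesis genes that fell numbered 11 with library totals as the scale or a replicate block over the 6 libraries and without DMSO replicate 3.

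Genes of the hypoxia response fell for 10 of 29 and rose for 0, with a median of -0.48. P4HA1, a prolyl hydroxylase of collagen, had 292, 239.5 and 215 CPM at 100 nM, against 654, 565 and 621 CPM in DMSO (log2 fold change -1.31 ± 0.16, adjusted p = 5.4e-05). The glucose transporter SLC2A1 fell by 0.76, lactate dehydrogenase LDHA by 0.70, the mitophagy receptor BNIP3L by 0.66 and the oxygen sensor EGLN1 by 0.56 (adjusted p = 0.00027, 0.0047, 0.00021 and 0.00033). The hypoxia genes that fell numbered 16 with library quality weights and 17 with a replicate block.

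Genes of mitosis rose for 24 of 28 tested, and none fell. Their sum was 15160, 12960 and 12160 CPM at 100 nM, against 7983, 7109 and 8630 CPM in DMSO, and all treated libraries stood above DMSO. MKI67, the proliferation marker, had 3672, 2680 and 2698 CPM at 100 nM, against 1607, 1462 and 1632 CPM in DMSO (log2 fold change 0.93 ± 0.14, adjusted p = 0.00019). TOP2A, topoisomerase II alpha, had 2007, 1807 and 1933 CPM at 100 nM, against 1253, 1046 and 1350 CPM in DMSO (log2 fold change 0.66 ± 0.10, adjusted p = 0.00022). BUB1B of the spindle checkpoint rose by 0.99 and CENPF of the kinetochore by 0.70 (adjusted p = 0.00019 and 0.00036). CENPE, ASPM, NUF2 and BIRC5 did not pass. The mitosis genes that rose numbered 15 without DMSO replicate 2.

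Genes of DNA replication rose for 8 of 33 (24.2%), against 11.9% of all genes, and fell for 0. E2F1, which turns on S-phase genes, had 76.1, 60.7 and 66 CPM at 100 nM, against 37.5, 24.9 and 30.6 CPM in DMSO (log2 fold change 1.14 ± 0.18, adjusted p = 0.00031). RRM2, a ribonucleotide reductase subunit, rose by 0.86, and RFC3, of the clamp loader, by 0.66 (adjusted p = 0.0012 and 0.0014). PCNA and the helicase genes MCM2 to MCM7 did not pass. The replication genes that rose numbered 13 with a replicate block and 15 with library totals as the scale or the deposited log2 RPKM. Replication-dependent histone genes, whose messages have no poly(A) tail and are seen in total RNA, rose for 16 of 61 (26.2%). Their sum was 7590, 4780 and 6330 CPM at 100 nM, against 4184, 3663 and 3794 CPM in DMSO, with replicate 1 highest. HIST1H2BJ rose by 1.09 (adjusted p = 0.0012), and histone genes of 1 class are near copies of each other, so reads may be shared among them. The histone genes that rose numbered 3 without DMSO replicate 2, 4 without 100 nM replicate 1, 6 without DMSO replicate 3, 10 without DMSO replicate 1, 25 without 100 nM replicate 2, 26 with a replicate block, 27 with only the 6 libraries fitted and 30 with a replicate block over the 6 libraries.

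Targets of p53, the DNA damage factor, rose for 7 of 26 (26.9%) and fell for 1 (3.85%), against 11.9% and 11.8% of all genes. GDF15, a stress cytokine, had 18.1, 29.5 and 10.2 CPM at 100 nM, against 3.3, 1.93 and 2.61 CPM in DMSO (log2 fold change 2.70 ± 0.44, adjusted p = 0.00064). PMAIP1, the death protein NOXA, had 37.6, 47 and 63.8 CPM at 100 nM, against 19.7, 16.8 and 16.4 CPM in DMSO (log2 fold change 1.45 ± 0.24, adjusted p = 0.00054), and AEN, a nuclease of apoptosis, had 33.9, 43.9 and 39.2 CPM at 100 nM, against 18.8, 14.2 and 13.3 CPM in DMSO (log2 fold change 1.33 ± 0.17, adjusted p = 4.9e-05). CDKN1A, the cell cycle inhibitor p21 and the most used reporter of p53, had 122, 219 and 174 CPM at 100 nM, against 182, 138 and 126 CPM in DMSO, with overlap, and did not pass (adjusted p = 0.77), nor did MDM2 (adjusted p = 0.81). Among apoptosis regulators 6 of 31 rose (19.4%) and 2 fell (6.45%), against the same shares of all genes. BCL2 and BCL2L1, which protect cells, rose by 1.14 and 0.94, and BCL2L11, which kills them, by 0.80 (adjusted p = 0.0014, 0.00075 and 0.0034). BMF, a killer of the same family, fell by 1.02 (adjusted p = 0.0061). The p53 targets that rose numbered 11 with library quality weights.

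In the list of H3K9 methylation writers and readers, 2 of 19 rose and 2 fell. These shares, 10.5% each, were near the 11.9% and 11.8% of all genes. TRIM28, the corepressor that brings SETDB1 to zinc finger proteins, had 309.8, 292 and 259 CPM at 100 nM, against 148, 123 and 138 CPM in DMSO (log2 fold change 1.07 ± 0.10, adjusted p = 9.4e-06). The methyltransferases EHMT1, EHMT2 and SETDB1 had adjusted p of 0.96, 0.88 and 0.85 with log2 fold changes of -0.01, 0.03 and -0.04. CBX5, heterochromatin protein 1 alpha, fell by 0.33 (adjusted p = 0.084 without 100 nM replicate 1, 0.072 without 100 nM replicate 2, 0.11 without DMSO replicate 1, 0.069 without DMSO replicate 3, 0.2 with the deposited log2 RPKM, 0.18 with library totals as the scale, 0.11 with only the 6 libraries fitted and 0.19 with a replicate block over the 6 libraries), and FAM208A, of the HUSH silencing complex, by 0.33 (adjusted p = 0.056 without 100 nM replicate 2, 0.095 without DMSO replicate 3, 0.15 with the deposited log2 RPKM, 0.18 with library totals as the scale, 0.1 with only the 6 libraries fitted and 0.14 with a replicate block over the 6 libraries), with adjusted p of 0.022 and 0.013 on all libraries. The members of this list that rose numbered 6 with library totals as the scale or the deposited log2 RPKM. They numbered 1 with no filter on low counts or prior count 5 or the 15 HMLE-TWIST1 libraries fitted. A replicate block over the 6 libraries or precision weights also gave 1. So did the fits without 100 nM replicate 1 or 100 nM replicate 2 or DMSO replicate 1 or DMSO replicate 2. Of the demethylases of this lysine, KDM4D rose by 1.25, and KDM4C fell by 0.49 (adjusted p = 0.003 and 0.0065). The call of KDM4C was lost with adjusted p = 0.063 with the deposited log2 RPKM and 0.056 with library totals as the scale.

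EZH2, the methyltransferase of Polycomb repression, had 209.8, 166 and 173 CPM at 100 nM, against 103, 98.5 and 97.3 CPM in DMSO (log2 fold change 0.87 ± 0.15, adjusted p = 0.00061). HDAC1 had 59.3, 51.1 and 56.9 CPM at 100 nM, against 84.3, 78.1 and 79.8 CPM in DMSO (log2 fold change -0.53 ± 0.10, adjusted p = 0.0012), HDAC7 fell by 0.52, and HDAC2 and HDAC4 rose by 0.38 and 0.58 (adjusted p = 0.0027, 0.004 and 0.003). TET1 and TET2, which oxidise methylated cytosine, fell by 0.78 and 0.96 (adjusted p = 0.0067 and 0.0026). Of 481 zinc finger genes named ZNF, 31 rose and 26 fell, shares under those of all genes. The rises numbered 13 with a replicate block over the 6 libraries, 17 without DMSO replicate 2, 18 without 100 nM replicate 1, 20 without 100 nM replicate 2 or DMSO replicate 3, 51 with library quality weights, 54 with library totals as the scale and 58 with the deposited log2 RPKM. The falls numbered 8 with library totals as the scale or the deposited log2 RPKM or a replicate block over the 6 libraries, 11 without 100 nM replicate 1 or DMSO replicate 3, 12 without DMSO replicate 2, 13 without DMSO replicate 1, 16 with only the 6 libraries fitted, 17 with the 15 HMLE-TWIST1 libraries fitted, 41 with library quality weights, 44 with a replicate block and 55 without 100 nM replicate 3.

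Interferon-stimulated genes rose for 9 of 40 (22.5%) and fell for 3 (7.5%), with a median of 0.066, against 11.9% and 11.8% of all genes. The falls numbered 1 with the deposited log2 RPKM and without 100 nM replicate 1, 5 with library quality weights and 6 without 100 nM replicate 3, and the median was -0.0957 without 100 nM replicate 2. IRF1, an interferon factor that NF-kB also induces, had 79.3, 92 and 55.5 CPM at 100 nM, against 19.4, 16.5 and 19.6 CPM in DMSO (log2 fold change 1.99 ± 0.21, adjusted p = 1.9e-05). HERC5 had 7.59, 13.1 and 4.67 CPM at 100 nM, against 0.77, 1.85 and 1.1 CPM in DMSO (log2 fold change 2.54 ± 0.47, adjusted p = 0.0014), and IFIT3 rose by 1.31 and RSAD2 by 2.31 (adjusted p = 0.0053 and 0.00097), all of them antiviral proteins. STAT2, a subunit of the interferon-activated factor, had 42.9, 49.5 and 57 CPM at 100 nM, against 92.6, 89.2 and 81.2 CPM in DMSO (log2 fold change -0.82 ± 0.13, adjusted p = 4e-04). The interferon genes that rose numbered 14 with library quality weights.

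Genes of TGF-beta and activin signalling, a pathway that can maintain mesenchymal states, fell for 10 of 32 and rose for 1, with a median of -0.16. The activity of the pathway was not measured. GREM1, an antagonist of BMP ligands, had 208, 327 and 260.3 CPM at 100 nM, against 699.6, 829 and 794 CPM in DMSO (log2 fold change -1.57 ± 0.39, adjusted p = 0.0096). LTBP2, a latent TGF-beta binding protein relative, fell by 1.11, the ligand TGFB1 by 0.41 and the receptor ACVR1 by 0.57 (adjusted p = 0.0015, 0.0061 and 0.0012). TGIF1, a repressor of SMAD targets, rose by 0.93 (adjusted p = 0.0014). The TGF-beta genes that fell numbered 6 with library totals as the scale or the deposited log2 RPKM and without 100 nM replicate 1 or DMSO replicate 1 or DMSO replicate 2. Of WNT ligands, receptors and inhibitors 5 of 26 rose (19.2%) and 8 fell (30.8%), against 11.9% and 11.8% of all genes. The rises numbered 3 without 100 nM replicate 2 or DMSO replicate 3. TCF7, a WNT effector, rose by 1.32, the inhibitor DKK2 by 2.20 and WNT9A by 1.68, while FZD2 fell by 1.11 and WNT5B by 0.88 (adjusted p = 5.7e-05, 0.0015, 0.0052, 0.0012 and 0.0068). The WNT genes that fell numbered 4 without DMSO replicate 2 and 5 with the deposited log2 RPKM and without 100 nM replicate 1 or 100 nM replicate 2 or DMSO replicate 3.

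Clustered protocadherins, which give cells surface identities, fell for 11 of 32 and rose for 0, with a median of -0.83. Their sum was 84.7, 144 and 149 CPM at 100 nM, against 257, 229.7 and 224 CPM in DMSO. PCDHGC3 had 23.2, 30.5 and 33.7 CPM at 100 nM, against 73.8, 58.6 and 72 CPM in DMSO (log2 fold change -1.23 ± 0.20, adjusted p = 0.00045). Variable exons of a cluster share their constant exons, so reads may be shared among members. The protocadherins that fell numbered 3 without 100 nM replicate 1, 4 without DMSO replicate 1, 5 without DMSO replicate 2 and 7 with the deposited log2 RPKM. HOX cluster genes fell for 4 of 25 (16%), against 11.8% of all genes. HOXC6 had 20.6, 26.5 and 25.2 CPM at 100 nM, against 45.9, 45.1 and 40.9 CPM in DMSO (log2 fold change -0.87 ± 0.12, adjusted p = 0.00017). The falls of HOX genes numbered 2 with only the 6 libraries fitted or a replicate block over the 6 libraries and without 100 nM replicate 2 or DMSO replicate 2 and 9 with library quality weights.

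Ribosomal proteins, oxidative phosphorylation and proteasome subunits had few calls with all libraries, beside 11.9% rises and 11.8% falls over all genes. YAP targets were not among such lists, with 15% rises and 20% falls, nor were autophagy and lysosome genes, with 8.7% and 21.7%. Ribosomal protein genes gave 2 rises and 0 falls in 83. Their rises numbered 0 without 100 nM replicate 1 or DMSO replicate 3, 1 with the 15 HMLE-TWIST1 libraries fitted or a replicate block over the 6 libraries and without DMSO replicate 1, 4 without 100 nM replicate 3, 5 with library quality weights, 9 with the deposited log2 RPKM or a replicate block, 11 without 100 nM replicate 2 and 14 with library totals as the scale, and at 11 of 83 the share was above that of all genes in the same setting (1602 of 18739). Nuclear genes of oxidative phosphorylation gave 0 rises and 4 falls in 82, with falls that numbered 0 with library totals as the scale or the deposited log2 RPKM, 1 with a replicate block over the 6 libraries and without DMSO replicate 3, 2 with no filter on low counts or only the 6 libraries fitted or the 15 HMLE-TWIST1 libraries fitted and without 100 nM replicate 2 or DMSO replicate 1 or DMSO replicate 2 and 9 with library quality weights. Proteasome subunits gave 0 and 2 in 37. Mitochondrial ribosomal proteins gave 9 and 1 in 75, with rises that numbered 2 with a replicate block over the 6 libraries, 3 with only the 6 libraries fitted and without 100 nM replicate 1 or DMSO replicate 1, 16 with a replicate block, 20 with library totals as the scale and 21 with the deposited log2 RPKM. Targets of the growth coactivator YAP gave 3 and 4 in 20, with rises that numbered 5 with library totals as the scale or only the 6 libraries fitted or a replicate block over the 6 libraries and 6 with the deposited log2 RPKM or a replicate block or library quality weights. Autophagy and lysosome genes gave 2 and 5 in 23, with falls that numbered 3 with a replicate block over the 6 libraries and without DMSO replicate 2 and 8 with library quality weights. Luminal mammary genes gave 1 and 1 in 10. Small RNAs gave 11 and 3 in 211, with rises that numbered 2 with a replicate block over the 6 libraries, 3 without 100 nM replicate 1, 7 without DMSO replicate 1 or DMSO replicate 3, 17 without DMSO replicate 2, 20 with library quality weights, 21 with library totals as the scale, 22 with a replicate block and 28 with the deposited log2 RPKM.

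A part of the rises came from genes with few or no DMSO reads. Of the 2231 genes that rose, 87 had 0 reads in the 3 DMSO libraries and 430 had 1 to 10, out of 1474 tested genes with at most 10. Most libraries behind the filter on low counts were drug-treated, and others were HMLE in DMSO. Genes silent in DMSO of HMLE-TWIST1 entered the test through those libraries, and these counts are a description only. The transcript AC003092.1 had 149 treated reads, 53, 91 and 5 in replicates 1, 2 and 3, against 0 in DMSO. Set against a floor of 3 counts pooled over the DMSO libraries (0.0899 CPM), this was at least 55.7-fold higher. ADCY2, an adenylyl cyclase, had 14, 41 and 14 treated reads against 0, at least 25.8-fold higher. RP11-41O4.2 had 25, 25 and 15 against 0, at least 24.3-fold higher. LRP1B, a large lipoprotein receptor relative, had 59, 93 and 25 treated reads against 2 in all of DMSO. These floors cover counting error only. For genes with so few DMSO reads, ESRP1, IL6, CDH1, EPCAM and RSAD2 among those above, the fitted log2 fold change depends on the prior count of 2 and is no bound.

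Genes of other cell types were looked at for the same reason. Members silent in DMSO entered the test through treated libraries or those of HMLE, so their reads are given without calls. The sums below cover tested members only. The filter thus favours members high in treated libraries, and the sums are a description only. Of 30 germline genes, 9 are listed in both groups and 8 were tested. DDX4, a helicase of germ cells, had 1.32, 1.74 and 0.359 CPM at 100 nM, against 0.11, 0 and 0.0843 CPM in DMSO. The germline sum was 10.1, 17.5 and 7.91 CPM at 100 nM, against 3.3, 4.83 and 5.06 CPM in DMSO. Of 14 leukocyte markers, 7 are listed in both groups and 5 were tested. CD3E and SPI1 are not listed in both groups, PTPRC had 30 reads at 100 nM, against 2 in DMSO, and ITGAM had 91, against 2. The leukocyte sum was 13.4, 26.7 and 14.3 CPM at 100 nM, against 3.96, 4.91 and 4.22 CPM in DMSO. Of endothelial markers, PECAM1 is not listed in both groups, CDH5 had 3 treated reads, against 0, VWF 23, against 5, and KDR 33, against 64. Among adipocyte markers PLIN1 had 15 treated reads, against 31, and FABP4 4, against 1. Among neuronal markers RBFOX3 and STMN2 are not listed in both groups, SYP had 25 treated reads, against 35, and SNAP25 9, against 20. The endothelial sum was 7.47, 8.52 and 4.49 CPM at 100 nM, against 7.04, 6.84 and 3.29 CPM in DMSO. The adipocyte sum was 77.7, 41.4 and 30.3 CPM at 100 nM, against 38.9, 24.2 and 23.3 CPM in DMSO, and the neuronal sum was 148, 93.7 and 93.8 CPM at 100 nM, against 65.9, 75.7 and 83.1 CPM in DMSO. The named neuronal markers had fewer treated reads, but these reads are not scaled to depth. In CPM the groups overlapped, with SYP at 0.581 to 1.45 at 100 nM, against 0.88 to 1.21 in DMSO. SNAP25 had 0.12 to 0.539 CPM, against 0.44 to 0.675, and was not tested, so it is not in the sum. The neuronal sum was higher in all treated libraries. Their part in the changes above was not tested.

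The introduced TWIST1 separates the HMLE-TWIST1 line from HMLE, and genes that differ between the lines at day 4 in DMSO were followed at 100 nM. These sets use DMSO libraries of day 4, which are not in the comparison, and 66.9% of genes passed the threshold between the lines there (33.5% higher and 33.4% lower). Of 2909 tested genes higher in HMLE-TWIST1 by at least 1 log2 unit, 418 rose (14.4%) and 428 fell (14.7%). Of 2833 genes lower in it, 466 rose (16.4%) and 242 fell (8.54%). Of the 11520 others, 1021 rose (8.86%) and 1544 fell (13.4%). Falls of the higher set numbered 259 without 100 nM replicate 1, 281 without DMSO replicate 1 and 252 without DMSO replicate 2, falls of the lower set 157 without 100 nM replicate 1 and 148 without DMSO replicate 2, and falls of the others 1011 without DMSO replicate 2 and 969 without DMSO replicate 3. Rises of the others numbered 673 without 100 nM replicate 1. Among genes with a mean DMSO log2 CPM of at least 2, falls outnumbered rises in both sets and among the others as well. Of 1341 such genes lower in HMLE-TWIST1, 160 rose and 218 fell, and of 1949 higher in it, 270 rose and 391 fell. Of the 8917 others at this level, 711 rose and 1496 fell.

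Higher doses share the DMSO libraries with 100 nM, so their values are set side by side only. Against DMSO, 150 nM gave 3355 rises and 3100 falls (17.8% and 16.5%, 34.3% in all), 200 nM gave 3938 and 3583 (20.9% and 19.1%, 40% in all), and 500 nM gave 4889 and 4651 (26% and 24.7%, 50.7% in all). The log2 fold change of HMOX1 was 3.21 at 100 nM, 3.65 at 150 nM, 3.93 at 200 nM and 4.54 at 500 nM. That of SPARC was -1.63, -2.01, -2.13 and -2.34 in the same order of doses. HSPA5 had -1.25, -1.24, -1.14 and -1.08, and TRIM28 had 1.07, 1.13, 1.17 and 1.15. For MKI67 they were 0.93, 0.80, 0.70 and 0.61.

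The step between 100 and 500 nM lies within libraries that the authors processed together, and needs no DMSO library. At 500 nM 1701 genes were higher than at 100 nM (9.05%) and 1484 lower (7.89%). HMOX1 was higher at 500 nM by 1.34, ATF3 by 1.61 and GDF15 by 1.75 log2 units (adjusted p = 0.016, 0.0096 and 0.016). PDGFRB was lower at 500 nM, with a log2 difference of -1.98, and so was THY1 with -1.20 (adjusted p = 0.0088 and 0.0054). Other genes showed no step past the threshold: NQO1 gave -0.23, FTH1 -0.01, TRIM28 0.07, HSPA5 0.18, ITGA5 -0.03 and MKI67 -0.32 (adjusted p = 0.31, 0.94, 0.68, 0.25, 0.89 and 0.11). With the replicate number as a block, MKI67 was lower at 500 nM with an adjusted p of 0.028, and the call of none of the other genes named in this paragraph changed. A p that misses the threshold does not show that the doses act alike.

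The washout arm has its own DMSO group of day 4 and shares no library with 100 nM. There, 15 h at 80 nM was followed by 48 h of fresh medium, so dose, time and recovery all differ. It gave 3412 rises and 3030 falls in 17585 genes (19.4% and 17.2%). Of 1905 genes that rose at 100 nM and were tested in both, 71.1% also rose after the washout, against 19.7% of all genes tested in both, and 3 fell. Of 2214 that fell, 66.1% also fell there, against 17.3%, and 12 rose. These shared genes were 39.9% of the rises and 48.9% of the falls of the washout.

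Some lists differed in their counts between 100 nM and the washout. ER chaperones fell for 10 of 20 there with a median of -0.23, against 12 of 20 and -0.53 at 100 nM. HSPA5 had a log2 fold change of -0.09 after washout (adjusted p = 0.31). Mesenchymal surface genes fell for 9 of 24 with a median of -0.20. Immediate early genes rose for 17 of 30 with a median of 0.62, against 1.34 at 100 nM, and EGR1 gave 0.05 (adjusted p = 0.59). NF-kB genes rose for 22 of 29, collagens fell for 12 of 20, and genes of mitosis rose for 23 of 28. The difference between the arms was not tested.

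Knockdown of SUV39H1 and SUV39H2 at day 2 was compared with a scrambled duplex in the same line, again with no shared library. With the duplexes SUV39H1 and SUV39H2 fell, with log2 fold changes of -1.40 and -1.21 (adjusted p = 5.8e-05 and 3.3e-06). The knockdown gave 1348 rises and 1478 falls in 17888 genes (7.54% and 8.26%). Of 1708 genes that rose at 100 nM and were tested in both, 9.48% rose in the knockdown, against 7.73% of all genes, and 7.14% fell, against 8.55%. Of 2214 that fell at 100 nM, 18.3% fell in the knockdown, against 8.55% of all genes, and 10.3% rose, against 7.73%. The shared genes were 12.2% of the rises and 27.7% of the falls of the knockdown.

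Interferon-stimulated genes rose for 40 of 41 in the knockdown with a median of 2.99, against 9 of 40 and 0.066 at 100 nM. STAT2 gave 1.02 in the knockdown (adjusted p = 3.5e-08), against -0.82 at 100 nM. Cholesterol genes fell for 20 of 32, matrix glycoproteins for 12 of 22 and mesenchymal surface genes for 12 of 24. HMGCS1 gave -0.78 (adjusted p = 3.7e-07). NRF2 targets rose for 1 of 27 and fell for 5, and AP-1 genes rose for 6 of 30 and fell for 5. NF-kB genes rose for 2 of 26 and fell for 3, and genes of mitosis rose for 0 of 28 and fell for 7. Of all genes tested in the knockdown, 7.54% rose and 8.26% fell. HMOX1 gave 0.13 and TRIM28 -0.23 (adjusted p = 0.58 and 0.019). The differences between the comparisons were not tested.

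**Figure D4:**
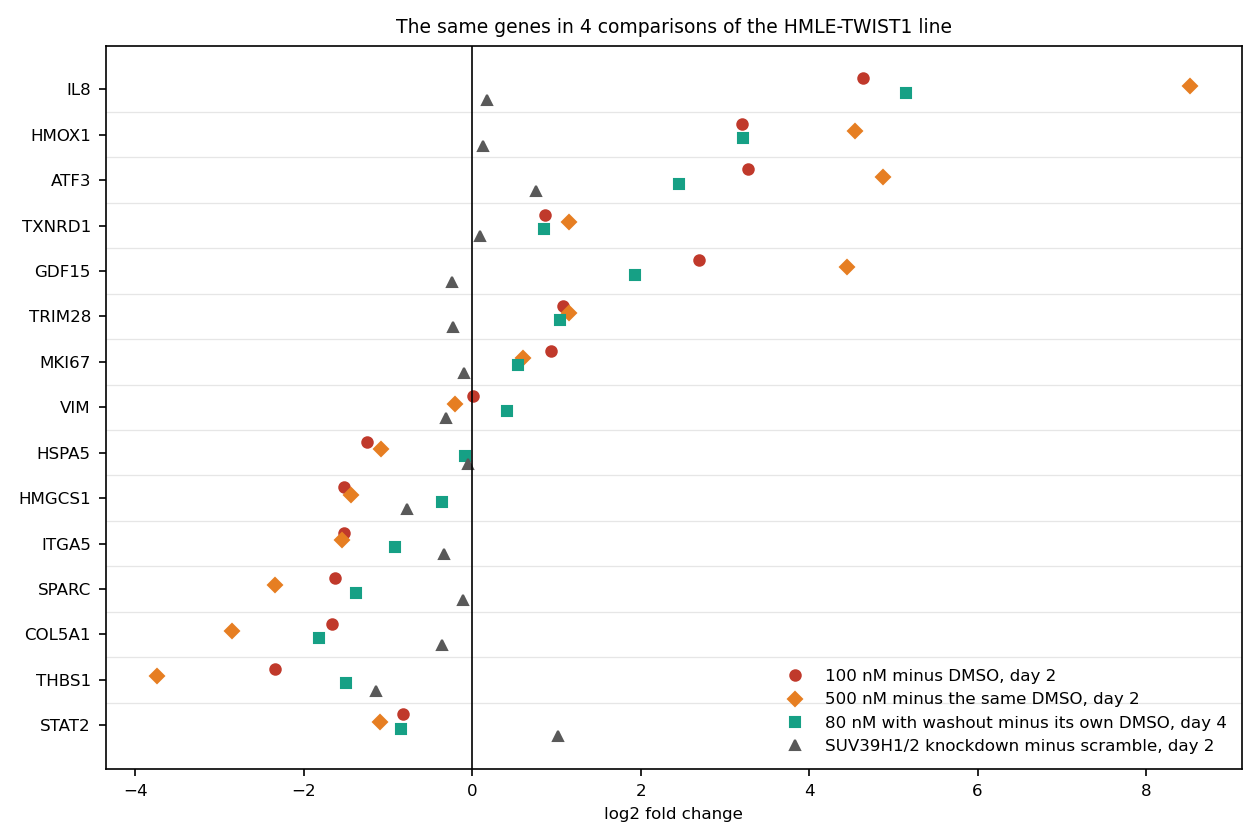
Log2 fold change of 15 genes at 100 nM and at 500 nM (both against the same DMSO libraries of day 2), after washout of 80 nM against DMSO of day 4, and after knockdown of SUV39H1 and SUV39H2 against scramble, n = 3 libraries per group. HMOX1, ATF3 and TXNRD1 lie above 0 under the drug, HSPA5 lies near 0 after washout, and STAT2 is negative at 100 nM and positive in the knockdown.

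The calls at 100 nM were not spread evenly over gene length and level. Length is that implied by the deposited values, and genes were split into 4 classes of about equal number. In the shortest class, of 53 to 1987 bases, 11.4% rose and 3.68% fell. In the longest, of 6333 to 118327 bases, 10.4% rose and 19.7% fell. The median log2 fold change was 0.146 in the shortest class and -0.107 in the longest. By level, 20.8% of genes under a mean log2 CPM of 0 rose and 1.32% fell, while over 5 the shares were 9.89% and 21.2%. The falls of the matrix lists stand beside this background, and the part of length or level in them was not tested.

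**Figure D5:**
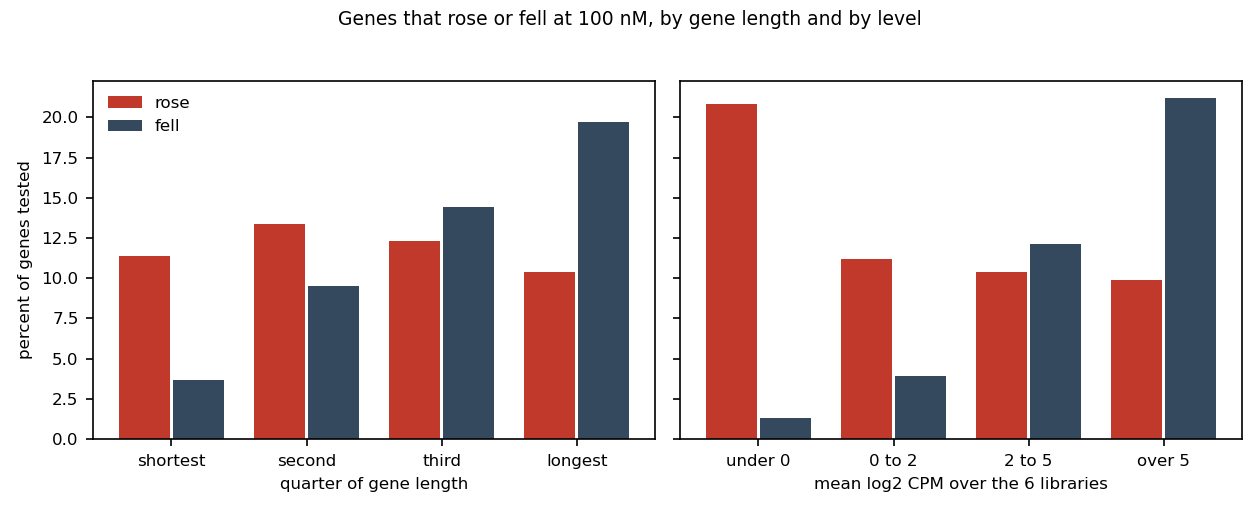
Percent of tested genes that rose or fell at 100 nM by class of gene length (left) and by mean log2 CPM (right), n = 3 libraries per group. The share that fell climbs over the length classes, 3.68, 9.51, 14.4 and 19.7%, and over the level classes, 1.32, 3.94, 12.1 and 21.2%.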

How the data were processed

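RNA was taken with Trizol and columns with DNase and made into stranded total RNA libraries after ribosomal RNA depletion, per the labels' protocols. The submitters' processing notes name STAR, HTSeq, hg19 and GRCh37, with versions not given in the sources used here. Whether reads were counted by strand is also not given, so reads of a gene and of its antisense or overlapping neighbour cannot be told apart. The authors deposited log2 RPKM values, reads scaled by gene length and library size after an added offset, in 3 sets of libraries processed separately: the DMSO and washout libraries, the duplex libraries, and the 100 to 500 nM libraries. A deposited table of raw counts with 81 columns whose names match no sample was not used.

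Whole reads were recovered from the deposited log2 values. All of them (100%) came out whole, with a largest distance of 2.65e-08 reads from a whole number. The main test was limma (3.58.1, R 4.3.3, statmod 1.5.0) with trend and robust moderation on log2 CPM of these reads (prior count 2). The fit held the 18 day-2 libraries of DMSO and drug, in 6 groups, which share 1 estimate of the spread. Libraries were scaled together by a trimmed mean of log ratios (30% of ratios and 5% of levels trimmed on each side). A gene was kept when 3 or more libraries reached the CPM of 10 reads in a library of median size. Its total also had to reach 15 reads. The planned design assumed deposited counts, and since the deposited unit is log2 the same fit was made on the recovered reads. The fit was also run on simulated reads with known changes. These had the same spread in all libraries, so the wider spread at 100 nM was not simulated. Depth is given in the report, and intervals and floors (3 counts) cover counting error only.

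Groups came from the sample labels. The members and the 48 gene lists were chosen with earlier results of these data known. Genes named by rule were markers of the study, the 12 largest rises and 12 largest falls whose mean log2 CPM was 2 or more and whose groups did not overlap, the 5 rises and 5 falls with the smallest adjusted p, and up to 4 members per list with the smallest adjusted p. Other named genes were chosen after their values were seen. The mitochondrially encoded list had 0 genes listed. Values of some list members are not reported here. Same-numbered libraries of 100 nM and of 150, 200 or 500 nM deviated together from their group means, with correlations of 0.344 to 0.786 over genes with a mean log2 CPM of at least 3, so the number pairs these libraries, by the data and not by the labels. Other scalings, filters, prior counts, weights, fits and left-out libraries were tried. Promoter sequences are those of RefSeq on GRCh38.p14, matched by symbol and not placed on the authors' build.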

Additional observations from a re-analysis of the deposited data

How the results depend on the processing

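The comparison of 100 nM with DMSO was recomputed in 20 other settings, and the cause of the differences was not tested. The main values were 2231 rises and 2222 falls. Without joint trimming, falls numbered 1259 with library totals as the scale and 1204 with the deposited values, which gave 3539 rises. In the fit of the 6 libraries alone, a replicate block gave 1207 rises and 1246 falls. Leaving out 1 library gave 1575 to 2560 rises and 1414 to 2564 falls, with the lowest falls without DMSO replicate 2. The other settings stayed within 1.5 times of the main counts, with the widest being library quality weights (3272 rises and 3094 falls) and the fit of only the 6 libraries (1511 and 1562). Of the 221 named genes tested, 199 passed the threshold, and at an unadjusted p under 0.05 6897 genes passed.

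Small counts in the gene lists are unstable. Of 46 counts of 1 to 5 members that rose or fell in a list, 38 moved by over 1.5 times in at least 1 of the settings.

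The replicate numbers of 100 nM and DMSO do not pair these libraries, since deviations of same-numbered libraries correlated at 0.115, -0.0816 and -0.119. With a replicate block over the 18 libraries, 2925 genes rose and 2946 fell. The block gave 2391 higher and 2217 lower for 500 nM against 100 nM, 3794 rises and 3426 falls for the washout, and 1372 and 1518 for the knockdown, all within 1.5 times of the values without it.

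Genes with a value near 0 changed sign. SUV39H1 had a main log2 fold change of -0.006888, and 0.007755 with median of ratios scaling, 0.1538 with library totals, 0.1362 with the deposited values, 0.01214 with no filter, 0.02865 in the fit of 6 libraries with or without the block, 0.006522 in that of 15 libraries, 0.01755 with precision weights and -0.1705 to 0.09819 with 1 library left out. VIM was 0.00 in the main fit, -0.0002101 with the stricter filter, -0.0139 with library quality weights and -0.03266 to 0.07273 with 1 library left out. The depth of 7892018 to 13764679 reads limits genes with few reads most.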
